A study of Mus musculus with 45 samples.

Results

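The inflammatory macrophage miRNAs described here are mmu-mir-155-5p, mmu-mir-146a-5p, mmu-mir-146b-5p, mmu-mir-21a-5p, mmu-mir-21a-3p and mmu-mir-132-3p. They were chosen by name, and all 6 were found among the 476 mature miRNAs listed in the series. Of the 206 miRNAs listed in all tables, 5 belong to this set, since miR-21a-3p was not listed for co-ex males or KO females. Libraries of small RNA came from the alveolar macrophages (AM) of 45 mice, 21 males and 24 females, and each mouse gave 1 library. The mice carried the human surfactant protein A variant SP-A2 (1A0), both SP-A1 and SP-A2 variants (6A2/1A0, co-ex), or no SP-A (KO). All were 12 weeks old and all lacked mouse SP-A, because both humanized transgenic (hTG) lines were made in C57BL/6J mice with the SP-A KO. They breathed filtered air (FA) or 2 ppm of ozone (O3) for 3 h, and AM were taken 18 h later. Each of the 12 groups of genotype, sex and exposure held 4 mice, except for SP-A2 males (3 after FA and 3 after O3) and co-ex males after O3 (3).

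A microRNA is loaded into an Argonaute protein and lowers the output of mRNAs that pair with its seed, the bases near its 5′ end. In macrophages, signals from Toll-like receptors (TLR) switch on NF-kB, which drives transcription of miR-155 and miR-146a. TLR signals also induce the cluster of miR-132 and miR-212. miR-155 is known to promote inflammatory signaling by repressing brakes such as SHIP1 and SOCS1, whereas miR-146a and miR-146b repress the TLR signaling proteins IRAK1 and TRAF6. miR-21 represses PDCD4 and is abundant in resting macrophages, and miR-132 is known to repress the coactivator p300 and acetylcholinesterase.

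The mature sequences are shown because their seeds set which of the 6 can share targets and which relatives a short read could be confused with. They are RefSeq sequences for the build GRCm38.p6, written 5′ to 3′, with the seed (bases 2 to 8) in capitals. miR-146a-5p and miR-146b-5p share a seed, miR-132-3p shares its seed with its cluster partner miR-212-3p, and each of the other 3 has a seed of its own within the set.
miR-155-5p: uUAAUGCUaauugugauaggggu
miR-146a-5p: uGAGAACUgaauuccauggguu
miR-146b-5p: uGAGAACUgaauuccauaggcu
miR-21a-5p: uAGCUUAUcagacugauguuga
miR-21a-3p: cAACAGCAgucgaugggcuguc
miR-132-3p: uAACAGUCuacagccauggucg
miR-212-3p: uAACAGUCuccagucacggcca
miR-21c: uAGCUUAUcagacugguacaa

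Counted from 1 at the 5′ end, miR-146a-5p and miR-146b-5p differed at 2 of 22 bases, G18A and U21C, with the miR-146a-5p base given first. Their first 17 bases are the same, so that a read that ended early could not be assigned to 1 of them. miR-21a-5p shares its first 15 bases with miR-21c, a listed relative that never exceeded 20 reads in a mouse. Another relative, miR-21b, differs from miR-21a-5p within the seed (C4U) and never exceeded 3 reads. miR-132-3p and miR-212-3p differ at 5 of 22 bases, and miR-212-3p was listed in only 2 of 6 tables, with at most 74 reads in a mouse. How the authors assigned reads that fit several of these is not given in the sources used here.

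In GRCm38.p6, mature miR-155-5p lies at chr16:84714143-84714165 on the plus strand, in an exon of its noncoding host gene Mir155hg. miR-146a-5p lies at chr11:43374435-43374456 on the minus strand and overlaps no other annotated gene. miR-146b-5p lies at chr19:46342790-46342811 on the plus strand, in an intron of Mfsd13a. Both arms of miR-21a lie in an exon of Vmp1 on the minus strand, the 5p arm at chr11:86584120-86584141 and the 3p arm at chr11:86584082-86584103. miR-132-3p lies at chr11:75173723-75173744 on the plus strand, in an intron of 1700016P03Rik. The build the authors used is not given in the sources used here.

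The libraries held between 137965 and 2884013 reads on listed miRNAs, with a median of 766213. A median of 96.6% of the 206 shared miRNAs had a read in a mouse, and the lowest mouse had 65.0%. In 5 libraries less than 80% of them had one, namely co-ex male FA replicates 1 and 4, co-ex female FA replicate 4, KO female FA replicate 4 and KO male O3 replicate 4. A pair of libraries with different labels, co-ex male FA replicate 3 and KO female FA replicate 3, held nearly the same values. Their chi-square per degree of freedom was 1.95 over 159 miRNAs and the correlation of their log2 CPM across miRNAs was 0.996, whereas the next closest of the 990 pairs of libraries had a chi-square of 79.8 per degree of freedom. Both had 0 reads of miR-155-5p, miR-146a-5p and miR-132-3p, and the lowest levels of miR-21a-5p of all mice (2201 and 2168 CPM). Which label belongs to these libraries cannot be told apart. Many of the log2 differences printed for their groups are therefore also given without them. The others, with the mean responses of the marker miRNAs among them, include these libraries.

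The labelled cell type was set beside a list of miRNAs called myeloid here, namely miR-142a-3p, miR-142a-5p, miR-223-3p and miR-511-3p. The miR-142a arms are not particular to myeloid cells among blood cells. The summed level of the myeloid miRNAs lay between 621 and 13228 CPM over all mice, and miR-511-3p was not listed in co-ex. Some co-ex males, co-ex females and KO females had a miR-142a-3p value of 0. The median sum of the epithelial marker miRNAs exceeded the myeloid one in every group but SP-A2 males and KO males after FA. In KO males after O3 these were 15337 and 4879 CPM, and in KO males after FA 4133 and 5270 CPM. The share of each cell type was not tested. In the mean over the 6 tables, limma called 53 of all 206 miRNAs after O3 (25.7%), 41 higher and 12 lower. The median log2 difference of all 206 was 0.19. Of the 3 testable myeloid miRNAs 0 were called, a number too small to set against that share. Their log2 differences were -0.47 (miR-142a-3p, SE 0.91), 0.20 (miR-142a-5p, SE 0.59) and 0.09 (miR-223-3p, SE 0.21). Of the marker miRNAs of other cells, 7 of 7 mesenchymal and 7 of 8 epithelial ones were called higher, with medians of 2.62 and 1.88. In these bulk samples, fewer cells of a type and less RNA per cell cannot be told apart.

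Levels between tables are given as CPM, reads scaled to a fixed total over the 206 shared miRNAs. The 6 miRNAs fell into an abundant and a scarce set. miR-21a-5p and miR-146b-5p had a median of 43835 and 33331 CPM over the 45 mice and were read in every mouse. miR-21a-5p alone took a median of 4.36% of all listed reads, with a range from 0.216% to 17.8%, and was the most abundant miRNA in 6 mice. miR-155-5p and miR-146a-5p had medians of 466 and 410 CPM, with 0 reads in 4 and 3 mice. miR-21a-3p, the passenger arm of the miR-21a hairpin, had a median of 42.3 CPM over the 30 mice of its 4 tables, and miR-132-3p one of 31.0 CPM over 45 mice. Reads of these last 2 were few (at most 243 and 189 in a mouse), and 8 of 30 and 7 of 45 mice had none.

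**Figure D1:**
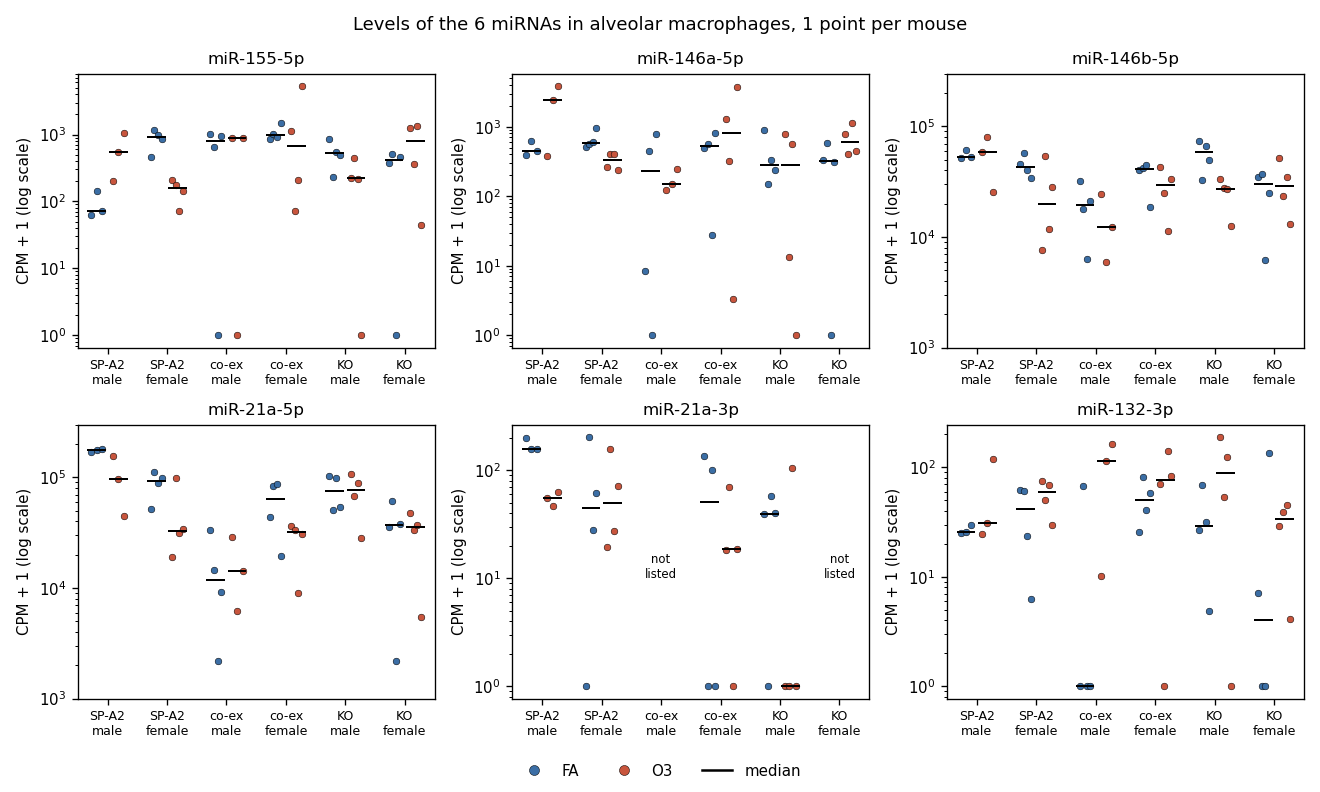
Level of each of the 6 miRNAs in every mouse (CPM over the 206 shared miRNAs plus 1, log scale) by genotype and sex, with 1 point per mouse, FA in blue, O3 in red and the group median as a bar. miR-155-5p is lowest in SP-A2 males after FA (median 70.8 CPM), miR-21a-5p is highest in the same mice (median 175989 CPM), and points on the bottom line of a panel are mice with 0 reads.

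Ordered by median, the lowest level of miR-155-5p was that of SP-A2 males after FA (70.8 CPM), followed by SP-A2 females after O3 (158 CPM), and the highest was that of co-ex females after FA (966 CPM, range 849 to 1470). miR-146a-5p was lowest in co-ex males after O3 (148 CPM) and highest in SP-A2 males after O3 (2427 CPM). The range of every group overlapped that of its neighbour in this order for all 11 neighbouring pairs of miR-155-5p, miR-146a-5p, miR-146b-5p and miR-132-3p. Groups further apart in the order could still separate. All SP-A2 males after FA (61.2 to 140 CPM) lay below co-ex females after FA (849 to 1470 CPM) for miR-155-5p. For miR-21a-5p, 10 of 11 neighbouring pairs overlapped, the exception being the top. There, all 3 SP-A2 males after FA (168686 to 179805 CPM) lay above SP-A2 males after O3 (45036 to 154920 CPM). miR-21a-3p had the same exception, with 157 to 199 CPM in SP-A2 males after FA against 45.7 to 61.3 CPM after O3.

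The effect of O3 was tested within each table, with limma on log2(normalized value + 1) over every listed miRNA and an FDR of 0.1 (Benjamini-Hochberg). Normalized values are reads divided by the authors' factor for each mouse. Of the 34 differences of the 6 miRNAs, 1 was called, a fall of miR-155-5p in SP-A2 females. The background was low as well: 0.67% and 1.07% of all miRNAs were called in male and female SP-A2 mice, 5.18% in male KO and 1.38% in female co-ex mice, and 0% in male co-ex and female KO mice. In those last 2 tables limma gave an unadjusted p under 0.05 to 8 and 22 miRNAs and to none of the 6 described here, edgeR called 0 and 0 miRNAs, and DESeq2 5 and 2, again none of the 6.

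miR-155-5p differed in opposite directions in the sexes of SP-A2. In SP-A2 females its normalized values were 352, 811, 644 and 701 after FA and 190, 126, 61.5 and 104 after O3. Every FA mouse was above every O3 mouse, and the log2 difference was -2.42 (SE 0.49, n = 4 and 4, limma adjusted p = 0.0454, the second smallest p of 373 miRNAs). In SP-A2 males the values were 48.8, 123 and 57.5 after FA and 197, 541 and 817 after O3. Here every O3 mouse was above every FA mouse, but the log2 difference of 2.64 (SE 0.65, n = 3 and 3) did not pass, with a limma adjusted p of 0.118. Both values depended on single mice. In females the call was lost without FA replicate 2, FA replicate 3, FA replicate 4 or O3 replicate 3 (limma adjusted p = 0.249, 0.204, 0.107 and 0.214), with differences from -2.14 to -2.38. In males the difference passed without O3 replicate 1 (3.23, limma adjusted p = 0.0333), and DESeq2 on reads called it with all mice (2.69, DESeq2 adjusted p = 0.00200).

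The lymphocyte miRNA miR-150-5p had differences of the same sign as miR-155-5p in both sexes of SP-A2, neither of them called. Its normalized values in SP-A2 males were 270, 207 and 251 after FA and 193, 1733 and 11021 after O3. Those of SP-A2 females were 665, 767, 4909 and 3079 after FA and 914, 207, 943 and 592 after O3. The 3 SP-A2 males exposed to O3 stood in the same order for miR-155-5p, miR-146a-5p and miR-150-5p, whereas the orders of miR-155-5p and miR-150-5p differed in the other 3 groups of SP-A2. The log2 differences of miR-150-5p were 2.68 in males and -1.55 in females (limma adjusted p = 0.253 and 0.378). The myeloid miRNA miR-142a-3p of SP-A2 males fell by 3.28 (SE 0.40, limma adjusted p = 0.00435) and had a log2 difference of -1.45 in SP-A2 females (limma adjusted p = 0.147). The 5p arm of its hairpin, miR-142a-5p, differed by -0.24 in males and -0.64 in females (limma adjusted p = 0.811 and 0.676). Those values of miR-223-3p were 0.05 and -0.74 (limma adjusted p = 0.978 and 0.457). Of the 4 myeloid miRNAs, 2 had a positive difference in males and 0 in females, with medians of -0.11 and -1.10. Myeloid sums ranged in SP-A2 males from 8568 to 13228 CPM (FA) and from 5094 to 10031 CPM (O3), and in SP-A2 females from 5574 to 10741 and from 2668 to 6591 CPM. The summed mesenchymal markers ranged from 4724 to 7488 CPM (FA) and from 9917 to 19089 CPM (O3) in males, and from 2022 to 4853 and from 7364 to 25896 CPM in females. Those of epithelial cells ranged from 7364 to 10822 and from 11395 to 16528 CPM in males, and from 6828 to 13324 and from 7589 to 18306 CPM in females. The part of other cells in the differences of miR-155-5p was not tested.

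**Figure D2:**
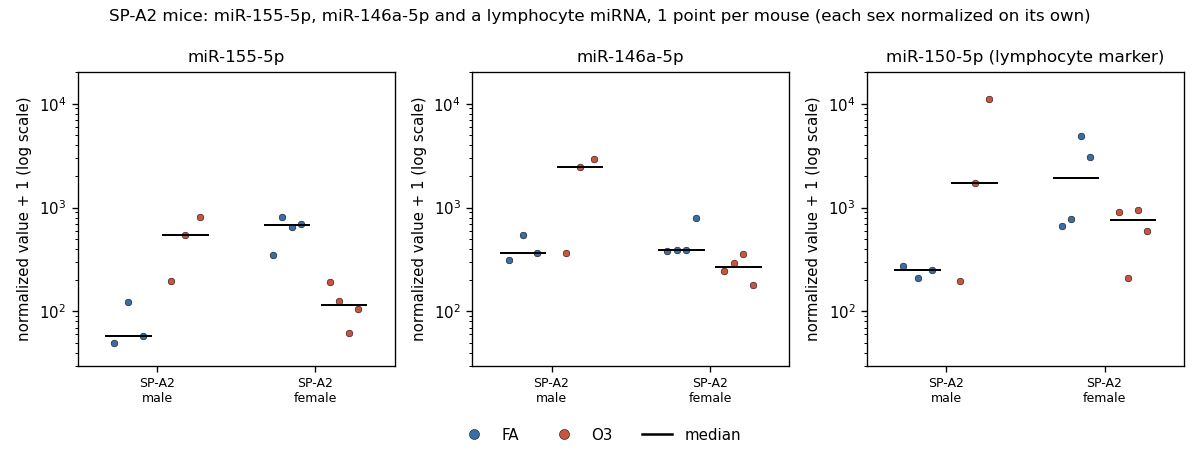
Normalized value plus 1 (log scale) of miR-155-5p, miR-146a-5p and the lymphocyte miRNA miR-150-5p in every SP-A2 mouse, by sex, with FA in blue, O3 in red and the median as a bar; each sex was normalized on its own. miR-155-5p lies between 48.8 and 123 after FA and between 197 and 817 after O3 in males, and between 352 and 811 after FA and 61.5 and 190 after O3 in females.

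In the other genotypes miR-155-5p varied widely between mice of a group. KO males had normalized values of 862, 199, 425 and 466 after FA and 215, 396, 211 and 0 after O3, with a log2 difference of -2.72 (SE 1.63, limma adjusted p = 0.439). Without KO male O3 replicate 4, which had 0 reads of it and is 1 of the 5 sparse libraries, the difference was -0.71. KO females had 273, 401, 0 and 353 after FA and 1328, 264, 911 and 44.3 after O3. Their log2 difference of 2.14 (SE 1.67, limma adjusted p = 0.727) was 0.03 without FA replicate 3, the library that nearly matched a co-ex male. Co-ex males ranged from 0 to 1003 after FA and from 0 to 1152 after O3, and co-ex females from 634 to 1139 and from 59.4 to 5540. The exposures overlapped in all 4 of these tables.

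The miR-146 pair, which represses TLR signaling proteins, did not pass the test in any table. miR-146a-5p in SP-A2 males had normalized values of 309, 541 and 365 after FA and 367, 2444 and 2959 after O3. A pair of O3 mice was above all FA mice and the remaining one within them, and the log2 difference was 1.81 (SE 0.71, limma adjusted p = 0.224). Without that mouse, O3 replicate 1, it was 2.77 and passed (limma adjusted p = 0.0198), as it did in DESeq2 with all mice (2.17, DESeq2 adjusted p = 0.0257). In SP-A2 females miR-146a-5p lay between 382 and 786 after FA and between 177 and 354 after O3. The ranges did not overlap, yet the log2 difference of -0.83 (SE 0.43, limma adjusted p = 0.468) did not pass.

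In KO mice miR-146a-5p followed miR-155-5p in sign. The log2 differences were -2.61 in males (SE 1.89, limma adjusted p = 0.510) and 2.91 in females (SE 1.497, limma adjusted p = 0.682). KO males held 926, 128, 251 and 225 after FA and 752, 11.1, 537 and 0 after O3, and KO females 245, 461, 0 and 233 after FA and 814, 297, 768 and 447 after O3. The difference in KO males was -0.76 without the sparse O3 replicate 4, and that in KO females was 0.85 without the near-identical FA replicate 3. Co-ex males ranged from 0 to 632 after FA and from 156 to 213 after O3, and co-ex females from 24.4 to 618 and from 2.09 to 3938, so that the exposures overlapped in both.

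miR-146b-5p, which differs from miR-146a-5p only near its 3′ end, was far more abundant and was read in every mouse. KO males gave its clearest difference, with normalized values of 75844, 28377, 51484 and 47564 after FA and 32282, 24502, 26026 and 8596 after O3. Of the O3 mice, 3 lay below every FA mouse, and the log2 difference of -1.22 (SE 0.46, limma adjusted p = 0.230) did not pass. DESeq2 on reads called it (-1.44, DESeq2 adjusted p = 0.0502), and without the sparse O3 replicate 4 the limma difference was -0.81 (adjusted p = 0.344). SP-A2 females had a log2 difference of -1.03 (SE 0.46, limma adjusted p = 0.384), from 26009 to 39681 after FA to 7016 to 38529 after O3. Without O3 replicate 2, which held 38529, the difference was -1.47 and passed (limma adjusted p = 0.0416). In SP-A2 males the difference was -0.03 (SE 0.53), and its sign turned with edgeR (0.10) and DESeq2 (0.12). In KO females it was 0.32 (SE 0.50) and turned to -0.05 without the near-identical FA replicate 3.

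The miR-21a hairpin gave both its arms in 4 tables. miR-21a-5p, the guide arm, held normalized values of 134571, 154675 and 146139 in SP-A2 males after FA and of 149801, 98088 and 34645 after O3. The mean was lower after O3 and the spread between mice much wider, and the log2 difference was -0.86 (SE 0.56, limma adjusted p = 0.471). It was -0.26 without O3 replicate 3 and -1.31 without O3 replicate 1. The SP-A2 females held 38756, 78305, 57696 and 81162 after FA and 17813, 70801, 27519 and 25394 after O3, with a log2 difference of -1.003 (SE 0.43, limma adjusted p = 0.362). As for miR-146b-5p, O3 replicate 2 stood inside the FA range, and without it the difference was -1.41 and passed (limma adjusted p = 0.0374). In co-ex females the log2 difference was -0.78 (SE 0.57, limma adjusted p = 0.640). It was -1.23 without the sparse FA replicate 4, -0.43 without FA replicate 3 and -0.29 without O3 replicate 3. Co-ex males, KO males and KO females had overlapping exposures, with means ± SD of 14541 ± 13439, 68875 ± 27907 and 26582 ± 18500 after FA and of 19462 ± 15503, 66522 ± 36021 and 26424 ± 18380 after O3.

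miR-21a-3p, the passenger arm, held 159, 138 and 128 in SP-A2 males after FA and 52.5, 46 and 47.1 after O3. Each FA mouse was above each O3 mouse, with reads of 91, 115 and 109 against 69, 63 and 50. The log2 difference was -1.52 (SE 0.58, n = 3 and 3, limma adjusted p = 0.214), and DESeq2 on reads called it (-1.60, DESeq2 adjusted p = 0.0459). In SP-A2 females it ranged from 0 to 141 after FA and from 17.2 to 113 after O3. There the log2 difference of 1.08 (SE 1.496) rested on 1 mouse without a read, and it was -0.03 with edgeR. In co-ex females 2 of 4 FA mice and 1 of 4 O3 mice had no read of it, and in KO males 1 of 4 and 3 of 4, and limma called neither difference.

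miR-132-3p is transcribed with miR-212 and is induced by TLR ligands and by CREB. It was scarce in every table, with normalized values of at most 181. The largest difference was in co-ex males, with 0, 60.6, 0 and 0 after FA and 11.8, 162 and 137 after O3, a log2 difference of 4.56 (SE 2.68, limma adjusted p = 0.881). All 3 O3 mice had a read and 3 of 4 FA mice had none, but the exposures overlapped, and edgeR gave a difference of 2.59. The FA mice with none were the sparse replicates 1 and 4 and the near-identical replicate 3. The remaining FA mouse, at 60.6, lay within the O3 range. Without the near-identical FA replicate 3 the limma difference was 4.06. In SP-A2 males the log2 difference was 0.87 (SE 0.90) and in SP-A2 females 1.09 (SE 1.09), both with overlapping exposures. KO males held 26.3, 59.4, 23.8 and 3.71 after FA and 181, 46.5, 120 and 0 after O3, and KO females 4.43, 0, 0 and 102 after FA and 29.4, 27.7, 30.4 and 3.09 after O3. The exposures overlapped in both.

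**Figure D3:**
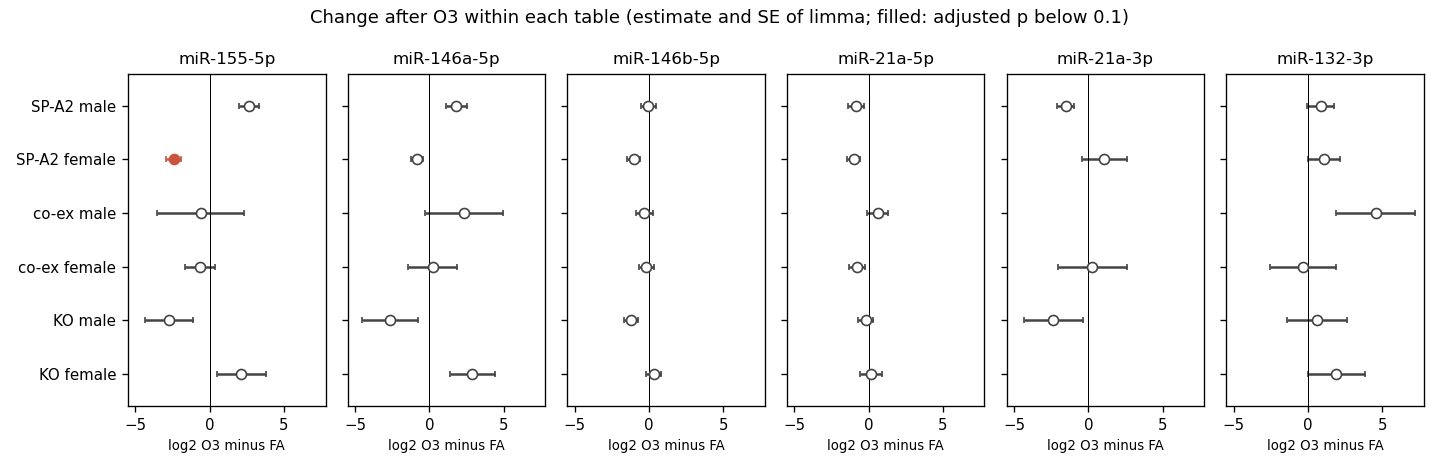
Difference between O3 and FA on the log2(normalized value + 1) scale for each of the 6 miRNAs in each table, with the limma estimate as a circle, the standard error as a bar and a filled circle for a limma adjusted p under 0.1. The filled circle is miR-155-5p in SP-A2 females (-2.42); its standard error is 0.49 there and 2.91 in co-ex males, where 1 mouse of each exposure had no read of it.

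Taking the 6 responses to O3 as 1 mean, over the 206 shared miRNAs, limma called 53 miRNAs (25.7%) and 0 of the 5 testable here. At an unadjusted p under 0.05 the counts were 63 and 1. The closest was miR-132-3p, with a mean log2 difference of 1.45 (SE 0.67, limma adjusted p = 0.123). It passed with a pseudocount of 10 (0.92, adjusted p = 0.0673), without the 5 sparse libraries (1.74, adjusted p = 0.0365), and in 6 of 45 fits that left out 1 mouse (co-ex male FA replicate 2 or O3 replicate 1, co-ex female O3 replicate 2, KO male O3 replicate 4, KO female FA replicate 4 or O3 replicate 4), over which it ranged from 1.57 to 1.73. Without the near-identical libraries it was 1.24 (adjusted p = 0.195). The mean differences of miR-155-5p, miR-146a-5p, miR-146b-5p and miR-21a-5p were -0.27, 0.64, -0.41 and -0.35 (limma adjusted p = 0.887, 0.683, 0.209 and 0.486), where the median of all miRNAs was 0.19. Without the near-identical libraries these were -1.02, 0.0014, -0.51 and -0.58, and without the sparse libraries 0.64, 1.28, -0.32 and -0.20, none of them called. With log2 CPM and TMM factors the mean difference of miR-146b-5p passed (-0.59, limma adjusted p = 0.0641). No difference among the 6 responses was called by limma for any miRNA (0%), with 11 of 206 at an unadjusted p under 0.05 and none of them in this set.

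The question of whether the sexes respond differently to O3 was tested as the male response less the female response within a genotype. In SP-A2, miR-155-5p was the 1 call of limma among 354 miRNAs (0.282%). Its interaction was 5.06 on the log2 scale (SE 0.83, limma adjusted p = 0.00470), and it was called in 14 of 14 fits that left out 1 mouse, from 4.62 to 5.65. With edgeR on reads it was 5.27 (edgeR adjusted p = 0.00298). miR-146a-5p had the same sign, 2.64 (limma adjusted p = 0.541), and passed without SP-A2 male O3 replicate 1 (3.60, adjusted p = 0.00492). The interaction of the lymphocyte miRNA miR-150-5p was 4.22 (limma adjusted p = 0.637), and its part in that of miR-155-5p was not tested. In KO the signs were opposite, with -4.86 for miR-155-5p, -5.52 for miR-146a-5p and -1.54 for miR-146b-5p (limma adjusted p = 0.516, 0.466 and 0.456). Without the near-identical KO female these were -2.75, -3.46 and -1.18. Without the sparse KO male O3 replicate 4 instead, those of miR-155-5p and miR-146a-5p were -2.85 and -3.67. Limma called none of 270 miRNAs in KO and none of 217 in co-ex (both 0%), with 27 and 3 at an unadjusted p under 0.05, and edgeR called 0 in both.

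Whether genotypes respond differently was tested in the same way within each sex. Limma called 1 of 320 miRNAs (0.312%) between SP-A2 and KO males and none in the other 5 comparisons (0%), where 9 to 16 miRNAs had an unadjusted p under 0.05. None of the 6 was called in any, by limma or edgeR. The largest in each sex were those of miR-155-5p between SP-A2 and KO, 5.36 in males and -4.55 in females (limma adjusted p = 0.612 and 0.775). They were 3.36 without the sparse KO male and -2.45 without the near-identical KO female. These comparisons share the SP-A2 or KO mice with those above.

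Levels in males and females of a genotype were compared after each exposure with edgeR on reads. After FA, 4.24% of 354 miRNAs were called between SP-A2 males and females, with miR-155-5p and miR-21a-5p among them. miR-155-5p held 61.2, 140 and 70.8 CPM in males and 466, 1163, 997 and 846 CPM in females, and the sexes did not overlap. Its call held in 7 of 7 fits that left out 1 mouse. miR-150-5p was called in the same direction, with a log2 difference of -3.42 (edgeR adjusted p = 0.0157). miR-142a-3p was called in the opposite direction (1.48, edgeR adjusted p = 0.0241). miR-142a-5p and miR-223-3p differed by 0.86 and 0.19 and were not called (edgeR adjusted p = 0.356 and 0.873). miR-21a-5p stood the other way round from miR-155-5p, with no overlap. It held 168686, 175989 and 179805 CPM in males and 51317, 112320, 89377 and 97966 CPM in females. Its log2 difference was 1.03 (edgeR adjusted p = 0.0625), and the call was lost without male FA replicates 1, 2 or 3 or female FA replicates 1 or 3 (0.77 to 1.09, edgeR adjusted p from 0.119 to 0.290).

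After O3, edgeR called none of 354 miRNAs between SP-A2 males and females (0%), with 32 at an unadjusted p under 0.05, and DESeq2 called 11. Those 11 included miR-146a-5p and miR-155-5p, whose edgeR log2 differences were 2.76 and 2.02 (edgeR adjusted p = 0.429 for both). Without SP-A2 male O3 replicate 1, miR-146a-5p passed with edgeR as well (3.33, adjusted p = 0.0292). In co-ex and KO, edgeR called no miRNA between the sexes after either exposure (0%), with 7 to 25 at an unadjusted p under 0.05, and DESeq2 called 0 to 3. The closest of the set were miR-21a-5p in co-ex after FA (-1.91, edgeR adjusted p = 0.302), which passed without co-ex male FA replicate 1 (-2.50, adjusted p = 0.0992), and miR-146b-5p in KO after FA (1.22, adjusted p = 0.466). Without the near-identical libraries they were -1.65 and 0.96.

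Between genotypes, the calls lay in males after FA. SP-A2 males were compared with co-ex males, where 14.1% of 227 miRNAs were called by edgeR. miR-21a-5p was higher in SP-A2 (168686 to 179805 CPM) than in co-ex (33717, 14656, 2201 and 9116 CPM), and the genotypes did not overlap. The log2 difference was 3.44 (edgeR adjusted p = 0.00529), and it was called in 7 of 7 fits that left out 1 mouse, from 3.12 to 3.93. miR-146b-5p was also higher in SP-A2, at 51262, 61643 and 53415 CPM against 32390, 17800, 6274 and 21318 CPM (1.35, edgeR adjusted p = 0.0382), and this call was lost without SP-A2 male FA replicate 2 or 3 (adjusted p = 0.112 and 0.135). Without the near-identical co-ex male these differences were 3.11 and 1.143 (adjusted p = 0.00379 and 0.0318). miR-155-5p was lower in SP-A2 than in 3 of 4 co-ex males, and its log2 difference of -2.93 (edgeR adjusted p = 0.436) passed without the near-identical mouse, which had 0 reads (-3.34, adjusted p = 0.0843).

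Between SP-A2 and KO males after FA, 2.81% of 320 miRNAs were called, with miR-155-5p among them. It held 61.2 to 140 CPM in SP-A2 and 846, 229, 552 and 490 CPM in KO, without overlap, and the log2 difference was -2.82 (edgeR adjusted p = 0.0492). The call held in 2 of 7 fits that left out 1 mouse. It was lost without SP-A2 male FA replicate 1, 2 or 3 or KO male FA replicate 3 or 4 (-2.59 to -3.33, edgeR adjusted p from 0.104 to 0.284). miR-21a-5p was 0.93 higher on the log2 scale in SP-A2 (edgeR adjusted p = 0.299), and passed without KO male FA replicate 1 (1.22, adjusted p = 0.0515). Between co-ex and KO males after FA, edgeR called none of 221 miRNAs (0%), with 35 at an unadjusted p under 0.05, and DESeq2 called 24. miR-21a-5p and miR-146b-5p were among the 35, with log2 differences of -2.44 and -1.57 (edgeR adjusted p = 0.104 for both), and passed without co-ex male FA replicate 1 or KO male FA replicate 2 (adjusted p from 0.0385 to 0.0912). Without the near-identical co-ex male they were -2.14 and -1.40. These 3 comparisons share their mice.

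In males after O3, edgeR called no miRNA between genotypes (0%), with 40, 22 and 19 at an unadjusted p under 0.05 for SP-A2 against co-ex, SP-A2 against KO and co-ex against KO, and DESeq2 called 44, 11 and 13. The largest difference of the set was miR-146a-5p between SP-A2 (380, 2427 and 3846 CPM) and co-ex (121, 148 and 245 CPM), with all SP-A2 mice higher and a log2 difference of 3.30 (edgeR adjusted p = 0.105). It passed with a low-count filter (edgeR adjusted p = 0.0941) and in DESeq2 (DESeq2 adjusted p = 0.00101). miR-21a-5p differed there by 2.28 (edgeR adjusted p = 0.260), which DESeq2 called (2.42, DESeq2 adjusted p = 0.0361), and miR-146b-5p between SP-A2 and KO by 1.56 (edgeR adjusted p = 0.586). In females after FA, 0.353% of miRNAs were called between SP-A2 and co-ex, 0.712% between SP-A2 and KO, and 0% between co-ex and KO, none of them in the set. In the last of these edgeR gave 8 miRNAs an unadjusted p under 0.05, and DESeq2 called 0. In females after O3, edgeR called none (0%) in any of the 3 comparisons, with 16, 8 and 6 at an unadjusted p under 0.05, and DESeq2 called 3, 0 and 1. There miR-155-5p had log2 differences of -4.00 between SP-A2 and co-ex and -2.62 between SP-A2 and KO, and miR-146a-5p one of -1.30 between SP-A2 and KO (edgeR adjusted p = 0.530, 0.963 and 0.963). The first of these was called by DESeq2 (-3.80, DESeq2 adjusted p = 0.0210) and was -1.99 without co-ex female O3 replicate 4 (edgeR adjusted p = 0.937).

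A ratio of 2 miRNAs within a mouse does not depend on the factor of the library. The guide arm of miR-21a exceeded its passenger arm by a median of 1617-fold over 30 mice, with 1 read added to each count. After O3 the log2 ratio differed by -0.28 in the mean of 4 tables (two-sided permutation test with 100000 resamples, p = 0.691, adjusted p = 0.691 over 3 ratios). miR-146a-5p was a median of 0.0123 of miR-146b-5p over 45 mice, and its log2 ratio differed by 1.00 after O3 (permutation p = 0.141, adjusted p = 0.315). The ratio of miR-155-5p to miR-146a-5p had a median log2 of 0 (range -7.96 to 6.12) and differed by -0.91 (permutation p = 0.210, adjusted p = 0.315). Mice with 0 reads of both have a log2 ratio of 0 through the added read alone. Without the near-identical libraries the last 2 differences were 0.57 and -1.01 (permutation test, adjusted p = 0.530 for both), and the first does not use them. Without the sparse libraries the 3 differences were -0.033, 1.42 and -0.67 (permutation test, adjusted p = 0.9645, 0.144 and 0.7075). Within tables, the largest separation was that of miR-155-5p to miR-146a-5p in SP-A2 females, whose log2 ratio was 0.38 ± 0.62 after FA and -1.21 ± 0.94 after O3 (SD, n = 4 and 4). All FA mice were above all O3 mice, which gives the smallest p that 4 against 4 mice allow (two-sided exact permutation test, p = 0.0286), and over 16 such tests the adjusted p was 0.457. In KO females the log2 ratio of miR-146a-5p to miR-146b-5p was 2.34 higher after O3 (exact permutation p = 0.0571, adjusted p = 0.457), and 0.90 higher without the near-identical FA replicate 3, which had 0 reads of miR-146a-5p (exact permutation p = 0.143). Tables with 3 against 3 mice could not give an exact p under 0.1.

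**Figure D4:**
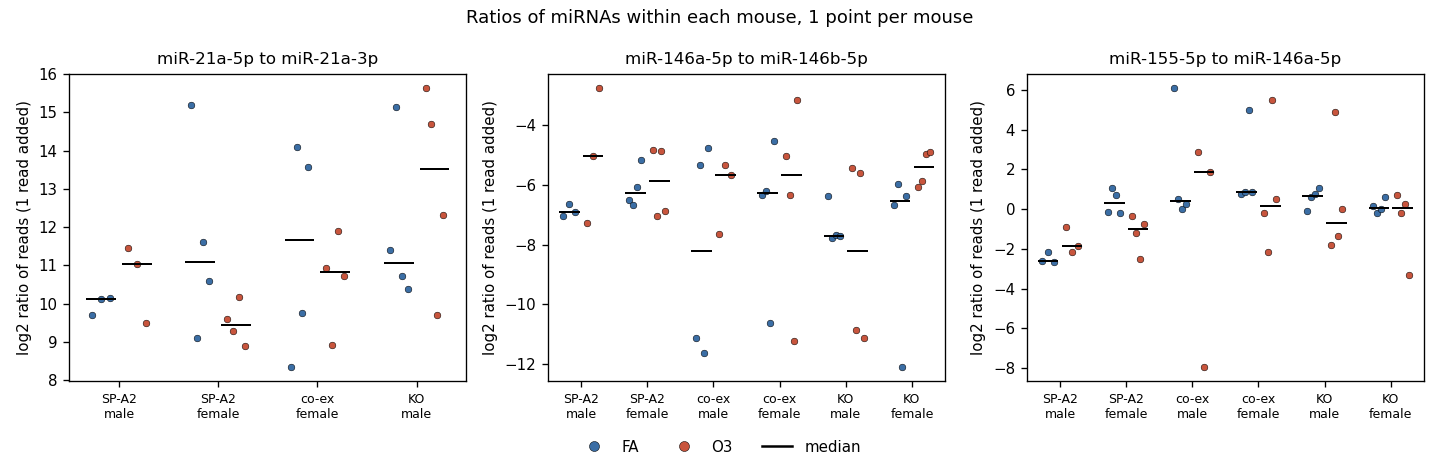
Within-mouse log2 ratio of reads (1 read added to each) of miR-21a-5p to miR-21a-3p, miR-146a-5p to miR-146b-5p and miR-155-5p to miR-146a-5p, with 1 point per mouse, FA in blue, O3 in red and the median as a bar. Ratios of miR-155-5p to miR-146a-5p range from -7.96 to 6.12 over all mice, and in SP-A2 females the mean is 0.38 after FA and -1.21 after O3.

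Over the 45 mice, with each table centred on its own mean, the miRNAs whose log2 CPM followed miR-155-5p most closely among 205 candidates were miR-26b-5p, miR-146b-5p and miR-146a-5p (Spearman's rho 0.637, 0.626 and 0.616). For miR-146a-5p they were miR-155-5p, miR-150-5p and miR-128-3p (0.616, 0.483 and 0.480). miR-146b-5p was followed most closely by let-7f-5p, miR-26b-5p and miR-24-3p (0.888, 0.759 and 0.751), and miR-21a-5p by miR-1298-5p, miR-146b-5p and miR-30b-5p (0.769, 0.750 and 0.733). The scarce miR-132-3p had lower values, with miR-2137, miR-1264-3p and miR-139-5p at 0.579, 0.545 and 0.522. These are descriptions across mice that share exposure, depth and the fixed sum of CPM.

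A list of 16 further miRNAs known to respond to TLR or NF-kB in macrophages was described beside the 6. Between 7 and 11 of them were listed in a table, and limma called none of them for O3 against FA within any table. In the mean response 7 could be tested, and 3 of them rose. These were miR-221-3p (1.32, limma adjusted p = 0.0315), miR-222-3p (0.57, limma adjusted p = 0.0683), its cluster partner, and miR-27b-3p (0.55, limma adjusted p = 0.0142). let-7e-5p, which targets TLR4, fell by 0.40 (limma adjusted p = 0.0334). The list's median was 0.55 where that of all 206 miRNAs was 0.19 and 25.7% of them were called. All these mean responses include the near-identical libraries.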

How the data were processed

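The 6 miRNAs and the lists were chosen with earlier results of these data known. The authors deposited 6 tables (1 per genotype and sex) of normalized signal, which is reads per miRNA divided by a factor for each mouse. They also deposited a p-value, a q-value and a rank score for FA against O3, which were not used. The libraries were made with the NEXTflex Small RNA kit. The submitters' processing notes name CASAVA and edgeR, and the paper edgeR and TCC 1.14.0. The aligner and build are not given in the sources used here. Of all values, 100% were whole multiples of 1 step per mouse within a tolerance of 1e-06 reads, which gave back whole reads. In 8 mice at least 100 values lay within 20 steps, a strict test, while in the others as few as 14 did, so that their recovery rests on all values together. Read totals cover listed miRNAs only, and tables list only miRNAs seen in several mice. Mice were grouped by their labels, although the paper's methods give 1 co-ex male fewer after FA than the 4 labelled.

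Differences between O3 and FA in a table, and between responses of tables, were tested with limma 3.58.1 (trend, R 4.3.3) on log2(normalized value + 1), a scale on which the differences of scarce miRNAs depend on the value added. Levels between tables were compared with edgeR 4.0.16 (TMM, quasi-likelihood) on reads, since tables were normalized separately. P-values were adjusted (Benjamini-Hochberg, FDR 0.1) over all miRNAs of a comparison. Ratios used permutation tests (scipy 1.17.1). The alternatives were pseudocounts of 0.1 and 10, low-value filters (10), an FDR of 0.05, DESeq2 1.42.0, other size factors, a replicate block, 0.5 read added, each mouse left out, and 2 settings chosen after seeing the data (without the sparse and without the near-identical libraries). The limma, edgeR and DESeq2 tests were checked on simulated data with large planted changes, and good recovery was required only at a small preset spread between mice. It was not required at the spread estimated from these mice. Interactions and comparisons of the sexes were simulated only at the small spread. Named are the 6 miRNAs, the 3 most alike for each, relatives with the same seed, called members of the TLR list, and miRNAs on which a result turns. The lists of other cells named by the report were counted in limma. Of the 3 erythroid and 1 lymphoid marker miRNAs, 1 each could be tested in the mean response and neither was called, and of the 2 endothelial ones none was listed in all tables.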

Additional observations from a re-analysis of the deposited data

Results flagged for a closer look

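In 51 sets of 4 mice (each 1 miRNA in 1 group), 7 held 1 mouse far from the others by Dixon's test on normalized values. The level of the test, 1 in 20, assumes normal values, whereas these hold zeros, so the number expected by chance is not known. A set with all mice but 1 at 0 is always flagged, as for miR-21a-3p in KO males after O3 and miR-132-3p in co-ex males after FA. miR-146a-5p had a normalized value of 786 in SP-A2 female FA replicate 4 (others 382 to 387) and of 926 in KO male FA replicate 1 (others 128 to 251). miR-21a-3p was at 0 in KO male FA replicate 2 (others 37.1 to 43.6) and at 101 in KO male O3 replicate 3 (others 0). miR-132-3p was at 60.6 in co-ex male FA replicate 2 (others 0), at 102 in KO female FA replicate 4 (others 0 to 4.43) and at 3.09 in KO female O3 replicate 4 (others 27.7 to 30.4). The response of miR-155-5p to O3 differed between the sexes of SP-A2 by 5.06 on the log2 scale in the limma interaction test (adjusted p = 0.00470), with all male O3 mice above and all female O3 mice below the FA mice of their sex.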

How the results depend on the processing

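Precision was limited by 3 or 4 mice a group and, for miR-21a-3p and miR-132-3p, by few reads. Under other settings, 362 differences of single miRNAs kept their direction and side of the threshold, 21 newly passed, 1 no longer passed and 7 changed sign, and with 1 mouse left out these counts were 624, 19, 16 and 13. The signs that changed were those of miR-146b-5p in SP-A2 males (0.10 with edgeR, 0.12 with DESeq2) and KO females (-0.049 without the near-identical libraries), miR-21a-3p in SP-A2 females (-0.032 with edgeR, -0.082 with DESeq2), the mean response of miR-155-5p (0.64 without sparse libraries) and the SP-A2 sex interaction of miR-132-3p (0.54 with edgeR). The cause was not tested. The last 2 named exclusions, of sparse and of near-identical libraries, were chosen after seeing the data.

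With each miRNA counted once in each comparison, the number of calls for O3 against FA was 1, was 5 with DESeq2 and ranged from 0 to 3 with 1 mouse left out. For the mean response it was 0, was 1 with a pseudocount of 10, with log2 CPM and TMM factors or without sparse libraries, and ranged from 0 to 1. The sex interaction count ranged from 1 to 2. Between males and females it was 2, was 4 with DESeq2 and ranged from 1 to 3, and between genotypes it was 3, was 8 with DESeq2 and 6 with a low-count filter, and ranged from 1 to 5.

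With 1 mouse left out, differences that changed sign ranged from -0.46 to 0.56 for miR-146b-5p in SP-A2 males, -0.095 to 0.59 in KO females, -0.34 to 2.04 for miR-21a-3p in SP-A2 females and -0.67 to 0.28 for the mean response of miR-155-5p. In the SP-A2 sex interaction miR-132-3p ranged from -0.81 to 0.41 and miR-21a-5p from -0.31 to 0.75. The mean log2 ratio of miR-21a-5p to miR-21a-3p ranged from -0.54 to 0.020, positive without SP-A2 female FA replicate 1 (0.020) or KO male O3 replicate 3 (0.0065).

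Same-numbered mice did not deviate together: r ranged from -0.14 to 0.27 over 22 pairs, 6 of them over 0.1. With the replicate number as a replicate block, the fall of miR-155-5p in SP-A2 females was -2.42 and no longer passed (limma adjusted p = 0.109), that of miR-146b-5p in KO males passed (-1.22, limma adjusted p = 0.0744), and 5 differences between genotypes were called, with miR-21a-5p and miR-146b-5p between co-ex and KO males after FA added. It changed no other call.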
